A study of Mus musculus with 6 samples.

Results

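The proteasome is the protease that degrades ubiquitin-tagged proteins, and its subunit genes were compared between the duodenal villi of double mutant and wild-type mice. Members were chosen by name alone, as rows of the count table whose Ensembl identifier belongs to a protein-coding gene with a symbol of Psm, a letter from a to g and a number. The rule gave 46 genes of 20409 features, and 45 of them were among the 13346 genes with enough counts to be tested. *Psma8*, an alpha subunit known from testis, was the exception, with 0 counts in each wild-type mouse and 1, 1 and 0 counts in double mutant mice 1, 2 and 3. *Psmb9*, a catalytic subunit of the immunoproteasome, and *Psmb11*, of the thymic proteasome, had no row that maps to them and were not analysed here.

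Villus epithelium was taken from 3 wild-type (WT) and 3 double mutant (DM) mice, with 1 library of polyadenylated RNA per mouse, and mouse 1 of each group was the male. The DM mice carried *Villin-CreERT2*, *Smad4* fl/fl and *Ctnnb* exon3fl/wt on a background enriched for C57BL6. Tamoxifen at 0.05 g/kg on 4 days was used to remove Smad4 and stabilise β-catenin, and the villi were collected 7 days after induction. The WT mice were littermates that received no tamoxifen, so the drug and the mutation cannot be told apart. The alleles of the littermates and the ages are not given in the sources used here. The Villin promoter drives the Cre in the whole intestinal epithelium, in crypt and villus alike.

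The core of the proteasome, the 20S particle, is a barrel of stacked rings. Its outer alpha rings (Psma) gate the entrance and its inner beta rings (Psmb) hold the proteolytic sites. The 19S cap on either end has a base with a ring of ATPases (Psmc) that unfolds substrates, and non-ATPase subunits (Psmd) that bind ubiquitin chains and remove them. Other activators (Psme) and an inhibitor (Psmf) can sit on the core in place of the cap. Dedicated chaperones (Psmg) build the alpha ring and then leave it. Under interferon, the catalytic beta subunits are replaced by those of the immunoproteasome, which alters the peptides offered to the immune system, and the villus epithelium lies beside many intraepithelial lymphocytes. Most proteasome genes are known to be raised together, when the proteasome falls short, by the transcription factor NRF1 through antioxidant response elements (ARE) in their promoters.

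Windows of up to 30 bases from the members' promoters are shown because elements of this kind are known to control proteasome genes together. RefSeq promoters of GRCm38.p6, from 250 bases before to 50 bases after each transcription start, were matched by symbol to 38 of the 46 members, and no promoter was matched for *Psma8*, *Psmb1*, *Psmb2*, *Psmb7*, *Psmc3*, *Psmd3*, *Psmd7* or *Psmg2*. The coordinates of these windows are those of GRCm38.p6, while all gene coordinates in the text are those of mm9. Each motif was searched on both strands. The core of the ARE, TGACNNNGC, was present in 6 of the 38 members (15.8%), against 14.0% of all 27025 genes with a promoter. The windows around it follow, 5′ to 3′ on the strand of the gene and with the motif in capitals, as these letters or as their reverse complement.
Psmb5 (chr14:54618024-54618052, minus strand): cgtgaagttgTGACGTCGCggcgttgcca
Psmb6 (chr11:70525338-70525366, plus strand): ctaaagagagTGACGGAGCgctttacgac
Psmc6 (chr14:45329587-45329615, plus strand): ccagccagtaGCTAAGTCAggcattgctc
Psmd9 (chr5:123228149-123228177, plus strand): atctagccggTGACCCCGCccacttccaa
Psmd12 (chr11:107479278-107479299, plus strand): tctGCTGTGTCAcatttgcccc
Psme4 (chr11:30771758-30771786, plus strand): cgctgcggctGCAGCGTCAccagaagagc

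None of these 6 genes passed the test for a difference between the groups, and 0 of the 9 called members with a promoter held the motif in these windows. In the promoter of *Psmd9* the ARE core overlaps a GC box. The box bound by NF-Y, CCAAT or its reverse complement ATTGG, was present in 12 of 38 members (31.6%) against 41.1% of all genes, in 4 of the 9 called members with a promoter (44.4%) and in 5 of the 7 alpha ring genes (71.4%). The alpha ring windows are shown because this ring held 4 of the 13 called members, of which *Psma2*, *Psma3* and *Psma7* hold the box and *Psma5* does not.
Psma1 (chr7:114276226-114276254, minus strand): ctttctctgcgcATTGGctttcccacccc
Psma2 (chr13:14613176-14613204, plus strand): ggtgactctcctCCAATcagagcaaagaa
Psma3 (chr12:70974472-70974500, plus strand): accttagctcttCCAATaccagtttcagt
Psma6 (chr12:55384074-55384102, plus strand): gggcagaccattATTGGggatcaagctcg
Psma7 (chr2:180042644-180042672, minus strand): gcctgcctgtcgCCAATgcgcgctcgagt

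A pair of interferon regulatory factor half-sites, GAAA followed by GAAA after a gap of 2 bases or the reverse complement of this, was present in 5 of 38 members (13.2%), against 4.0% of all genes: *Psmb3*, *Psmd4*, *Psmd9*, *Psme1* and *Psmg4*. The windows of *Psme1* and *Psmg4* are shown because these are the called members that hold it.
Psme1 (chr14:55578493-55578522, plus strand): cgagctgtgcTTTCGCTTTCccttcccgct
Psmg4 (chr13:34162969-34162998, plus strand): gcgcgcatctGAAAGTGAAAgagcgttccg

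The GC box GGGCGG, or CCGCCC, was present in 22 of 38 members (57.9%, against 38.2% of all genes), 10 of them among the 12 non-ATPase genes with a promoter. The Myc box CACGTG was present in 4 of 38 (10.5% against 8.1%), and the core of the TCF site, CTTTGA or TCAAAG, in 6 of 38 (15.8% against 18.2%). These matches describe letters in the sequence and are not evidence of binding in these mice.

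Gene counts totalled 19678507 to 26337318 per mouse, and levels are given in CPM, the count scaled to the size of the library and its TMM factor, on which scale 3 counts are worth 0.125 to 0.163. *Smad4*, the deleted gene, had 119.8, 180.1 and 144 CPM in WT mice 1, 2 and 3 and 26.1, 36.8 and 32.1 CPM in DM mice 1, 2 and 3 (log2 fold change -2.22, standard error 0.187, adjusted p = 0.000145, edgeR). *Ctnnb1*, whose stabilised form lacks an exon that counts per gene do not resolve, was at -0.15 (adjusted p = 0.359). The 12 enterocyte markers were detected in all 6 mice, at 432 CPM or more each, and 8 of them were lower, led by *Lct* (-2.04 on the log2 scale) and *Slc5a1* (-2.01), and 1 higher, *Fabp1* (0.82). Of 12 crypt stem and cycling cell markers, 9 were higher, led by *Ccnb1* (2.38) and *Cdk1* (2.31), and 0 lower, and their summed level was 88.5 to 190.5 CPM in WT and 318 to 402 CPM in DM villi. None of these markers was at 0, the lowest value being 0.167 CPM of *Lgr5* in WT mouse 1. The 8 genes listed as goblet markers summed to 125 CPM in WT mouse 1, against 11616 and 11039 CPM in WT mice 2 and 3 and 4669 to 5064 CPM in DM mice. Of these, 1 was higher, *Clca1* (1.496), and 0 lower. The row that the mm9 annotation names *Clca1* had 2.62, 5.82 and 3.03 CPM in WT mice 1, 2 and 3, unlike *Muc2* at 11.7, 1139 and 1019 CPM. Whether that row marks goblet cells is uncertain. The 6 Paneth markers ranged from 7.91 CPM in WT mouse 1 to 1499.8 CPM in WT mouse 3, with *Defa17* at 0 in WT mouse 1, and 0 were called in either direction. Of 8 mesenchyme, endothelium and muscle markers, 2 could be tested and 0 were called, and the sum of the 8 was 1.75 to 7.46 CPM, with *Col1a1*, *Col1a2*, *Col3a1*, *Pdgfra*, *Acta2* and *Des* at 0 in at least 1 mouse. Beside these marker counts, 19.7% of all genes were called higher and 17% lower. In bulk RNA of the epithelium, fewer cells of a type and less RNA per cell cannot be told apart. The part that these shifts in markers have in the proteasome results was not tested.

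The members that rose in DM villi were 4 genes of the alpha ring, 2 of the beta ring, 3 of the non-ATPase class, 1 activator and 3 alpha ring chaperones. Of the 45 members tested, 13 were higher and 0 lower at an adjusted p under 0.05 (edgeR, and likewise with DESeq2 and limma-voom), which is 28.9% higher beside a background of 19.7% of all genes called higher, 17% called lower and 36.8% called in either direction. At an unadjusted p under 0.05 there were 19 members higher and 0 lower, beside 24.8% of all genes higher. The log2 fold change, DM minus WT, was positive for 40 of 45 members, beside 51.3% of all genes, and its median was 0.25 for the members and 0.02 for all genes. In 20 of 45 members every DM mouse lay above every WT mouse, and in 0 every DM mouse lay below, beside 28.1% and 24.2% of all genes. The difference exceeded 1 on the log2 scale for 3 members, *Psmg1*, *Psmg2* and *Psmg4* (beside 10.9% of all genes). It was 2 or more for 0 members (3.04% of all genes), and -1 or less for 0 members (6.23%). The number of higher members fell to 7 without WT mouse 2, 8 without WT mouse 3, 6 without DM mouse 2 and 7 without DM mouse 3, when 13.3% to 17.8% of members were called higher beside 13.2% to 15.4% of all genes. It was 20 in the 4 females alone, with *Psma6*, *Psmb3*, *Psmb4*, *Psmb6*, *Psmb7*, *Psmb10* and *Psmd4* in addition, and 30 with scaling by library size alone, a scaling that raised the median of all genes by 0.194.

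**Figure D1:**
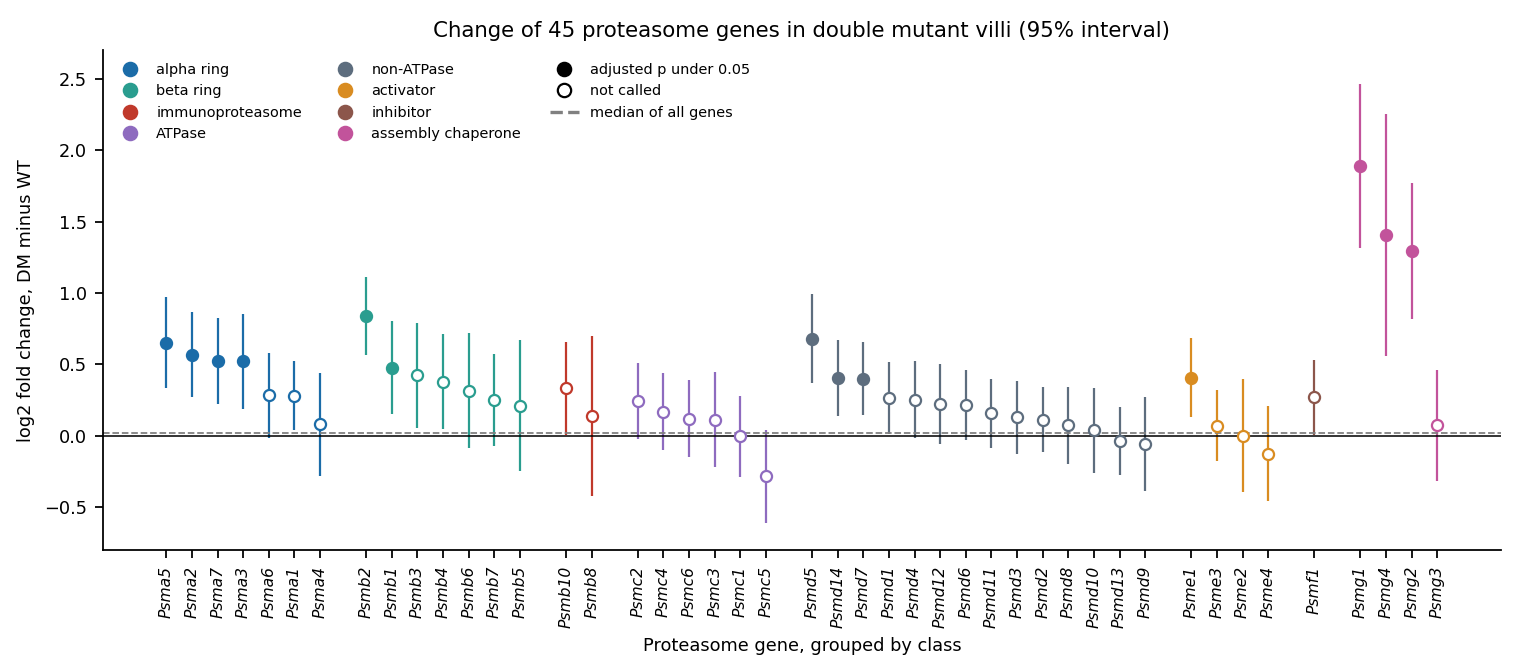
Log2 fold change (DM minus WT, vertical axis) of the 45 proteasome genes tested, grouped and coloured by class, with 95% intervals from edgeR; filled points had an adjusted p under 0.05 and the dashed line is the median of all 13346 genes. All 13 filled points lie above 0, and *Psmg1*, *Psmg4* and *Psmg2* lie above 1.

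All members together took 0.326% ± 0.0261 of the counts in WT villi and 0.438% ± 0.0343 in DM villi (SD, n = 3 mice). Per mouse the share was 0.332%, 0.297% and 0.348% in WT mice 1, 2 and 3 and 0.402%, 0.470% and 0.442% in DM mice 1, 2 and 3. The groups did not overlap, and WT mouse 2 was the lowest and DM mouse 2 the highest of the 6. This share is a scaling by library size, on which the mean was 1.35-fold higher in DM villi, and on the TMM scale it was 1.178-fold higher. On that scale the members summed to 3640.3, 3185 and 3626 CPM in WT mice 1, 2 and 3 and to 3713, 4444 and 4155 CPM in DM mice 1, 2 and 3, so that DM mouse 1 lay only just above WT mouse 1. Among the WT mice, WT mouse 2 also had the lowest median member, 0.13 below the WT mean on the log2 scale, where WT mice 1 and 3 were at 0.11 and 0.07. The median member in DM mice 1, 2 and 3 was 0.13, 0.35 and 0.24 above the WT mean.

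The genes of the 20S core all had a positive log2 fold change, in 14 of 14 tested members of the alpha and constitutive beta rings. Among them, 6 were called higher (42.9%, beside 19.7% of all genes) and 0 lower, with a median of 0.40. The 20 genes of the 19S cap had 3 called higher (15%, below the 19.7% of all genes), 0 lower and a median of 0.14. The 19S count includes *Psmd5*, *Psmd9* and *Psmd10*, which are known as assembly chaperones of its base rather than as parts of the finished cap. Within each library, the counts on 20S genes divided by those on 19S genes came to 0.803, 0.723 and 0.798 in WT mice 1, 2 and 3 and 0.877, 0.983 and 0.933 in DM mice 1, 2 and 3. The ratio needs no scaling between libraries, and its groups did not overlap. This ratio and the next were not among the planned values and were not tested. With 3 mice against 3 the smallest p that an exact permutation test allows is 0.1. Against the ATPases alone, the 20S counts were 2.18 to 2.27 times as many in WT and 2.76 to 2.97 times as many in DM mice.

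**Figure D2:**
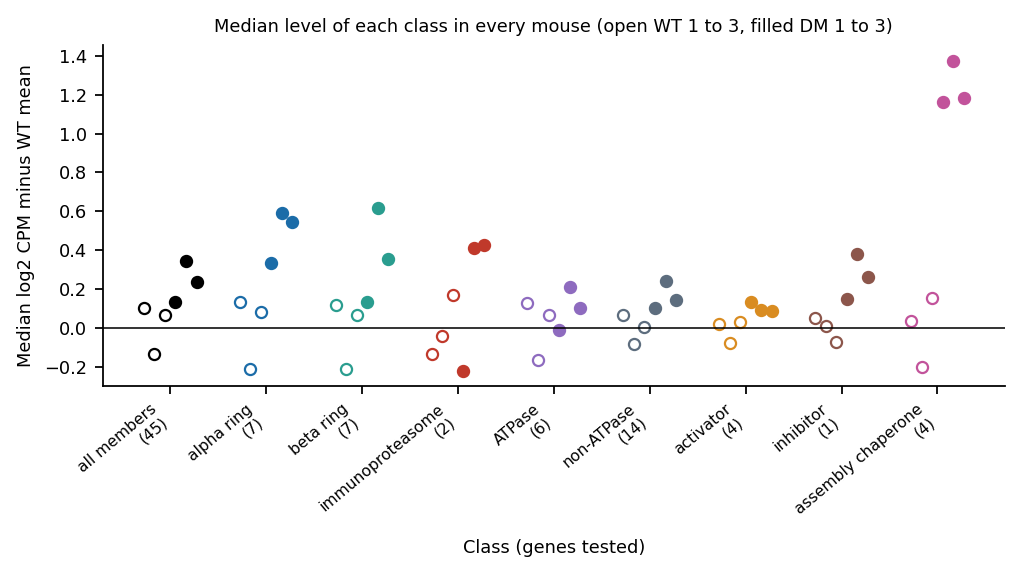
Median level of each class of proteasome genes in every mouse, as log2 CPM minus the mean of the WT mice (vertical axis), with WT mice 1 to 3 as open and DM mice 1 to 3 as filled points from left to right, and the number of genes tested in parentheses. The assembly chaperones of the DM mice lie between 1.16 and 1.37, while the DM points of the ATPases, at -0.01, 0.21 and 0.11, lie among those of the WT mice or just above them.

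In the alpha ring, which forms the gate of the core, 4 of 7 tested genes were higher (57.1%, beside 19.7% of all genes) and 0 lower. Their class had a median log2 fold change of 0.52. *Psma5* (ENSMUSG00000068749; chromosome 3, 108059844 to 108082892, plus strand) had 50.2, 36.4 and 49.1 CPM in WT mice 1, 2 and 3 and 70.2, 73.2 and 69.8 CPM in DM mice 1, 2 and 3. Its DM mice lay close together and all above the WT mice, and it rose by 0.65 on the log2 scale (standard error 0.140, adjusted p = 0.00764, edgeR). *Psma2* rose by 0.57 (adjusted p = 0.0102), *Psma7* by 0.53 (adjusted p = 0.0147) and *Psma3* by 0.52 (adjusted p = 0.0235) in the same test. *Psma4* was the alpha gene with the smallest difference, at 151, 101 and 128 CPM in WT and 123, 149.6 and 128 CPM in DM mice. The groups overlapped, with both the lowest and the highest value in WT mice, and the log2 fold change was 0.08 (95% interval -0.28 to 0.44, adjusted p = 0.721). *Psma1* and *Psma6* did not pass the test, both at 0.28, although every DM mouse lay above every WT mouse for both genes (adjusted p = 0.0664 and 0.120). The calls of *Psma2* and *Psma5* held with each mouse left out, that of *Psma7* in 3 of 6 such fits and that of *Psma3* in 2.

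The constitutive beta ring had 2 of 7 genes higher (28.6%, beside 19.7% of all genes) and 0 lower, with a median log2 fold change of 0.38. *Psmb2* (ENSMUSG00000028837; chromosome 4, 126354874 to 126386958, plus strand), a beta subunit without a proteolytic site, had 49.5, 40.6 and 51.8 CPM in WT mice 1, 2 and 3 and 86.1, 84.7 and 83.0 CPM in DM mice 1, 2 and 3. The groups were far apart beside their spread, 47.3 ± 5.91 and 84.6 ± 1.57 CPM (SD, n = 3), and *Psmb2* rose by 0.84 (standard error 0.121, adjusted p = 0.00128, edgeR). It passed with each mouse left out. *Psmb1*, also without a proteolytic site, rose by 0.48 (adjusted p = 0.0304) and passed in 2 of 6 fits with a mouse left out. Its call was lost when the replicate number was added to the fit. *Psmb3* and *Psmb4*, the remaining subunits of this kind, were at 0.43 and 0.38 and did not pass (adjusted p = 0.0690 and 0.0698). Both passed without WT mouse 1 (0.52 and 0.44), in the females alone (0.61 and 0.57) and with library size alone (0.62 and 0.57), and *Psmb4* also without DM mouse 1 (0.51).

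None of the 3 constitutive catalytic genes passed the test, and none had an unadjusted p under 0.05 in edgeR. *Psmb5*, which encodes the chymotrypsin-like site, had 47.9, 43.4 and 41.5 CPM in WT mice 1, 2 and 3 and 48.5, 67.7 and 37.7 CPM in DM mice 1, 2 and 3. DM mice 1 and 2 were above every WT mouse, DM mouse 1 only just, and DM mouse 3 was below every WT mouse, and the log2 fold change was 0.21 (95% interval -0.24 to 0.67, adjusted p = 0.438). *Psmb6*, for the caspase-like site, had 89.4, 66.1 and 82.5 CPM in WT and 77.7, 118 and 101 CPM in DM mice. DM mice 2 and 3 were above all WT mice and DM mouse 1 was not (log2 fold change 0.32, 95% interval -0.08 to 0.72, adjusted p = 0.192). *Psmb7*, for the trypsin-like site, had 72.2, 63.5 and 68.5 CPM in WT and 66.5, 93.5 and 82.7 CPM in DM mice. Its order was the same, with DM mouse 1 inside the WT range (log2 fold change 0.25, 95% interval -0.07 to 0.57, adjusted p = 0.199). *Psmb6* and *Psmb7* passed the test in the females alone (0.56 and 0.42) and with library size alone (0.51 and 0.44), and *Psmb7* also without DM mouse 1 (0.38). Exons of *Psmb7* overlap those of *Nek6* on the opposite strand, and the strand setting of the counting is not given in the sources used here. *Nek6* fell by 0.62 on the log2 scale (adjusted p = 0.0160, edgeR).

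The immunoproteasome genes were abundant in both groups, and 0 of the 2 that could be measured passed the test in edgeR, DESeq2 or limma-voom, *Psmb10* alone having an unadjusted p under 0.05 in edgeR. *Psmb10* (ENSMUSG00000031897; chromosome 8, 108459628 to 108462292, minus strand), which takes the place of *Psmb7*, had 249.5, 238 and 288 CPM in WT mice 1, 2 and 3 and 269.8, 373 and 333 CPM in DM mice 1, 2 and 3. DM mice 2 and 3 lay above all WT mice and DM mouse 1 below WT mouse 3, and the difference was 0.33 on the log2 scale (adjusted p = 0.103, edgeR). It passed the test without DM mouse 1 (0.46), in the females alone (0.43) and with library size alone (0.52). *Psmb8* (ENSMUSG00000024338; chromosome 17, 34334666 to 34338399, plus strand), which takes the place of *Psmb5*, had 159.5, 189.7 and 211 CPM in WT mice 1, 2 and 3 and 131, 228 and 259 CPM in DM mice 1, 2 and 3. DM mouse 1 was the lowest and DM mouse 3 the highest of the 6, and the log2 fold change was 0.14 (95% interval -0.42 to 0.70, adjusted p = 0.681). It was -0.05 without DM mouse 3, 0.39 without DM mouse 1 (adjusted p = 0.0849) and 0.28 in the females alone (adjusted p = 0.102), and did not pass in any of these fits.

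Each immunoproteasome subunit was then set against the constitutive subunit it replaces within the same library, in 2 pairs. The log2 ratio of *Psmb8* to *Psmb5* counts was 1.73, 2.13 and 2.34 in WT mice 1, 2 and 3 and 1.43, 1.75 and 2.78 in DM mice 1, 2 and 3. The mean was 2.07 ± 0.309 in WT and 1.99 ± 0.704 in DM mice (SD, n = 3), a difference of -0.08 (exact permutation test, two-sided p = 1, adjusted over the 2 pairs p = 1). The ratio of *Psmb10* to *Psmb7* was 1.79, 1.91 and 2.07 in WT and 2.02, 1.99 and 2.01 in DM mice. Its DM values fell inside the WT range, and the difference was 0.09 (exact permutation test, two-sided p = 0.4, adjusted p = 0.8). With 3 mice against 3 the smallest p this test allows is 0.1. Per kb of exon sequence, *Psmb10* was at 3.30 to 4.01 times the level of *Psmb7* in every mouse. *Psmb8* was at 0.911 to 2.32 times the level of *Psmb5* by exonic length and at 1.85 to 4.70 times by the length of the median transcript, so the order of this pair depended on the length used in DM mouse 1.

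**Figure D3:**
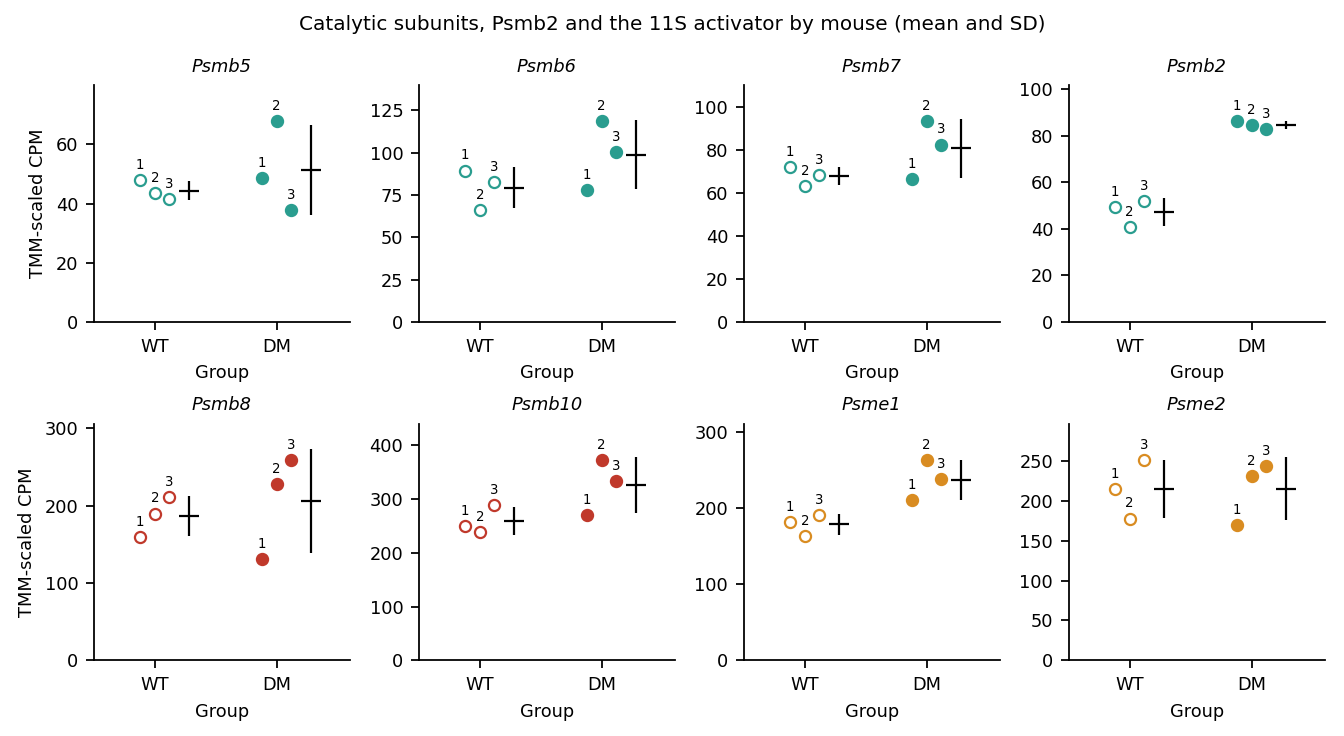
TMM-scaled CPM (vertical axes, from 0) of the constitutive catalytic genes *Psmb5*, *Psmb6* and *Psmb7*, of *Psmb2*, of the immunoproteasome genes *Psmb8* and *Psmb10* and of *Psme1* and *Psme2* in each mouse, numbered 1 to 3, with the mean and SD of each group beside the points. The groups are apart for *Psmb2* and *Psme1* and overlap for the other 6 genes.

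Of 16 genes of interferon signalling and antigen processing, which are known to move with the immunoproteasome, 1 was higher and 5 were lower, with a median log2 fold change of -0.28. Of all genes, 19.7% were called higher and 17% lower. *Irf8*, an interferon regulatory factor, rose by 0.87 (adjusted p = 0.00372, edgeR). *Socs1*, an inhibitor of cytokine signalling, fell by 1.44 and *Jak2*, a kinase of the interferon-γ receptor, by 0.95 (adjusted p = 0.0117 and 0.000958). *Irf1*, a further interferon regulatory factor, had 273, 206 and 269 CPM in WT and 185, 214 and 231 CPM in DM mice (log2 fold change -0.25, adjusted p = 0.208). Its groups overlapped.

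Leukocytes are rich in immunoproteasome, so their markers are given beside these genes. Of 13 leukocyte markers tested, 0 were higher and 2 lower, *Ptprc* at -1.29 and *Cd8a* at -0.92 on the log2 scale, and the median of the 13 was -0.90. Of all genes, 19.7% were called higher and 17% lower. Without *Cd74*, the markers summed to 107, 222 and 210.1 CPM in WT mice 1, 2 and 3 and 96.7, 106 and 144 CPM in DM mice 1, 2 and 3, and none was at 0 in any mouse. *Cd74*, the invariant chain of MHC class II, had 625, 2032 and 2671 CPM in WT and 1051, 2654 and 3048 CPM in DM mice. It was lowest in mouse 1 of each group, the males, as were *Psmb8* and the peptide transporter *Tap1* (103, 154 and 165 CPM in WT and 121, 166 and 178 CPM in DM mice). The part of these cells, of sex or of *Cd74* in the levels of *Psmb8* was not tested.

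The ATPases of the 19S base had 0 of 6 genes called in either direction, by edgeR, DESeq2 or limma-voom and with 0 at an unadjusted p under 0.05 in edgeR, and a median log2 fold change of 0.12. Of all genes, 36.8% were called in either direction in edgeR. *Psmc2* was at the upper end, with 58.0, 48.4 and 57.9 CPM in WT mice 1, 2 and 3 and 61.5, 68.5 and 64.6 CPM in DM mice 1, 2 and 3. Every DM mouse lay above every WT mouse, DM mouse 1 only just, and the log2 fold change was 0.24 (95% interval -0.02 to 0.51, adjusted p = 0.135). *Psmc5* was at the lower end, with 118, 93.9 and 91.1 CPM in WT and 71.8, 92.3 and 84.4 CPM in DM mice. DM mouse 1 was the lowest and WT mouse 1 the highest of the 6, and the log2 fold change was -0.28 (95% interval -0.61 to 0.04, adjusted p = 0.153), the most negative of all members. The upper end of the 95% interval was 0.51 or less for each of the 6 ATPases, so a doubling lay outside it. With library size alone, *Psmc2* and *Psmc4* were called higher.

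Of the 14 non-ATPase genes, 3 were higher (21.4%, near the 19.7% of all genes) and 0 lower, with a median log2 fold change of 0.19. *Psmd14*, the deubiquitinase that cuts ubiquitin chains from substrates as they enter, had 44.7, 38.4 and 36.7 CPM in WT mice 1, 2 and 3 and 52.7, 53.5 and 52.7 CPM in DM mice 1, 2 and 3. The DM mice differed by less than 1 CPM and all exceeded the WT mice, and *Psmd14* rose by 0.41 (standard error 0.116, adjusted p = 0.0249, edgeR). *Psmd7*, its partner in the lid, rose by 0.40 (adjusted p = 0.0226), from 43.1 ± 2.36 to 56.9 ± 4.07 CPM (SD, n = 3). Both calls held in 2 of 6 fits without a mouse, and were lost when the replicate number was added to the fit. The ubiquitin receptor *Psmd4* (0.25), the large scaffolds *Psmd1* (0.26) and *Psmd2* (0.11), and the lid genes *Psmd3* (0.13), *Psmd6* (0.21), *Psmd8* (0.08), *Psmd11* (0.16), *Psmd12* (0.22) and *Psmd13* (-0.03) did not pass. Exons of *Psmd13* overlap *Sirt3* on the opposite strand, and those of *Psmd1* overlap *Armc9* on the same strand, so their counts are uncertain to that extent. Exons of *Psma4*, *Psmb8*, *Psmc3* and *Psme1* likewise overlap those of *AY074887*, *Gm20496*, *Slc39a13* and *Fam158a*, the highest of which had 17.5 CPM in any mouse, and the annotation holds other overlapping models named *Psmd14*.

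The chaperones of the 19S base differed among themselves. *Psmd5* (ENSMUSG00000026869; chromosome 2, 34707608 to 34726459, minus strand), which holds part of the ATPase ring during assembly, had 12.9, 13.2 and 14.8 CPM in WT mice 1, 2 and 3 and 23.9, 20.5 and 21.03 CPM in DM mice 1, 2 and 3. It had the largest rise of the non-ATPase class, by 0.68 (standard error 0.137, adjusted p = 0.00570, edgeR), with no overlap between the groups and a call that held with each mouse left out. *Psmd9* had 19.3, 15.7 and 19.4 CPM in WT and 15.9, 18.0 and 18.3 CPM in DM mice, a log2 fold change of -0.06 (95% interval -0.39 to 0.27, adjusted p = 0.783), with all DM mice inside the WT range. *Psmd10*, also called gankyrin, was at 0.04 (adjusted p = 0.843), from 18.0 ± 1.11 to 18.5 ± 1.34 CPM.

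Among the 4 activators, 1 was higher (25%, near the 19.7% of all genes) and 0 lower, with a median log2 fold change of 0.04. *Psme1* (ENSMUSG00000022216; chromosome 14, 56196960 to 56200366, plus strand) encodes one of the subunits of the interferon-inducible activator PA28, and had 182, 163 and 191 CPM in WT mice 1, 2 and 3 and 210.4, 264 and 238 CPM in DM mice 1, 2 and 3. Every DM mouse lay above every WT mouse, and it rose by 0.41 (standard error 0.122, adjusted p = 0.0296, edgeR). It passed in 2 of 6 fits with a mouse left out, and not when the replicate number was added to the fit. *Psme2*, the other PA28 subunit and its neighbour on chromosome 14 (56206278 to 56209950, minus strand), had 215, 178 and 252 CPM in WT and 170.0, 231 and 244 CPM in DM mice. Its groups overlapped, with DM mouse 1 the lowest and WT mouse 3 the highest, and with a log2 fold change of 0.00 (95% interval -0.39 to 0.40, adjusted p = 0.996). The counts of *Psme2* are uncertain because its annotated pseudogene, *Psme2b-ps*, was counted at 90.1 ± 7.48 CPM in WT and 87.6 ± 23.3 CPM in DM villi, and the sum of the pair gave -0.01. *Psme3*, the nuclear PA28 subunit, was at 0.07 (adjusted p = 0.637). *Psme4*, which encodes the activator PA200, had 106, 132 and 114 CPM in WT and 127, 92.2 and 104 CPM in DM mice. DM mouse 2 was the lowest and WT mouse 2 the highest, with a log2 fold change of -0.12 (95% interval -0.46 to 0.21, adjusted p = 0.536).

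The inhibitor *Psmf1*, also called PI31, had 32.5, 31.6 and 29.8 CPM in WT mice 1, 2 and 3 and 34.8, 41.0 and 37.6 CPM in DM mice 1, 2 and 3. Every DM mouse lay above every WT mouse, yet it did not pass over all genes (log2 fold change 0.27, 95% interval 0.01 to 0.53, adjusted p = 0.0970, edgeR).

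The chaperones that build the alpha ring had the largest differences of all members, with a median log2 fold change of 1.35. Of the 4 genes, 3 were higher (75%, beside 19.7% of all genes) and 0 lower. *Psmg1* (ENSMUSG00000022913; chromosome 16, 96201540 to 96212567, minus strand), which encodes PAC1, had 2.17, 1.90 and 3.23 CPM in WT mice 1, 2 and 3 and 8.22, 9.88 and 8.97 CPM in DM mice 1, 2 and 3. The lowest DM mouse was above the highest WT mouse by more than the range of either group, and *Psmg1* rose by 1.89 (standard error 0.251, adjusted p = 0.000911, edgeR), which is 3.70-fold. *Psmg2* (ENSMUSG00000024537; chromosome 18, 67801253 to 67813816, plus strand), for PAC2, the partner of PAC1 in a heterodimer, had 3.87, 2.88 and 2.98 CPM in WT and 7.65, 8.07 and 8.26 CPM in DM mice. It rose by 1.29 (standard error 0.209, adjusted p = 0.00215), 2.45-fold, with a narrow spread in both groups. The calls of this pair held with each mouse left out.

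*Psmg4* (ENSMUSG00000071451; chromosome 13, 34254833 to 34270041, plus strand), for PAC4, had 1.83, 1.14 and 3.18 CPM in WT mice 1, 2 and 3 and 5.02, 6.54 and 4.79 CPM in DM mice 1, 2 and 3. WT mouse 3 was the nearest to the DM mice but did not overlap them, and *Psmg4* rose by 1.41 (standard error 0.372, adjusted p = 0.0184, edgeR). The call was lost without DM mouse 2, at 1.25 (adjusted p = 0.0717). *Psmg3*, for PAC3, the partner of PAC4, had 15.5, 13.4 and 13.5 CPM in WT and 11.9, 16.0 and 16.7 CPM in DM mice. DM mouse 1 was the lowest of the 6 and DM mouse 3 the highest, with a log2 fold change of 0.07 (95% interval -0.32 to 0.46, adjusted p = 0.767). The members of the PAC3 and PAC4 pair thus had 95% intervals that did not overlap, -0.32 to 0.46 and 0.56 to 2.25, although the difference between them was not tested.

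**Figure D4:**
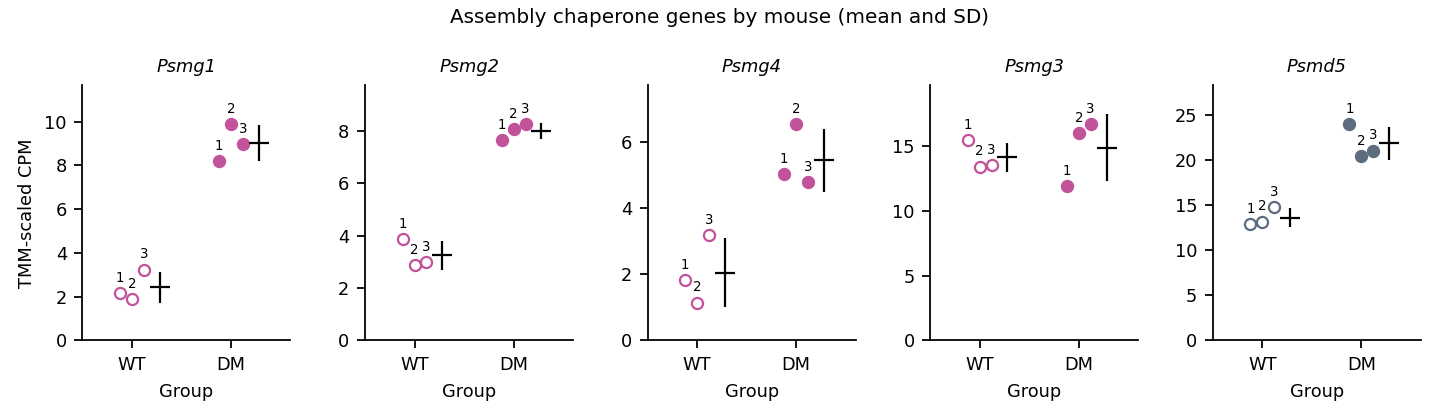
TMM-scaled CPM (vertical axes, from 0) of the alpha ring chaperone genes *Psmg1*, *Psmg2*, *Psmg4* and *Psmg3* and of the 19S base chaperone gene *Psmd5* in each mouse, numbered 1 to 3, with the mean and SD of each group beside the points. All DM mice lie above all WT mice for *Psmg1*, *Psmg2*, *Psmg4* and *Psmd5*, and the groups overlap for *Psmg3*.

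By exonic length, the alpha ring chaperones that rose had the lowest levels of the tested members in WT villi, but not in DM villi. Per kb of exon sequence in WT villi, *Psmg1*, *Psmg2* and *Psmg4* were at 1.81, 2.49 and 3.71 CPM per kb and *Psmg3* at 16.9. In DM villi they were at 6.71, 6.14, 9.84 and 17.8 CPM per kb, while *Psmd9* was at 3.81 and *Psmf1* at 5.87 CPM per kb. This contrast depended on the length used. By the median transcript, *Psmg1*, *Psmg2* and *Psmg4* were at 11.2, 6.78 and 10.6 CPM per kb in DM villi. On that scale they were below all other tested members but *Psmd9* (6.70). At the other end were *Psmb10* with 204 CPM per kb in WT villi, *Psme2* with 122 and *Psmb1* with 97.8. The median per kb in WT villi was 34.2 CPM for the alpha ring, 48.0 CPM for the beta ring, 33.2 CPM for the ATPases and 20.2 CPM for the non-ATPases. Exonic length counts every annotated exon. Genes whose exons together are much longer than their median transcript appear lower on this scale than by the length of that transcript. Examples were *Psmd11* (6401 and 646 bp) and *Psma3* (3894 and 867 bp).

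Parts and partners of the proteasome with other names were measured from a list of 13 genes, of which 12 were in the table, *Paaf1* being the exception. Of these, 3 were higher and 2 lower, beside 19.7% of all genes called higher and 17% called lower. *Ipo9*, an importin that carries assembled proteasomes into the nucleus, rose by 1.07 (adjusted p = 0.00149, edgeR) and *Usp14*, a deubiquitinase on the 19S cap, by 0.94 (adjusted p = 0.000982). *Akirin2*, which links proteasomes to that importin, fell by 0.46 (adjusted p = 0.0209), and *Zfand5*, a proteasome-binding zinc finger protein, by 0.35 (adjusted p = 0.0340). *Pomp*, which completes the beta ring of the core, had 138, 86.8 and 107 CPM in WT and 101, 132 and 121 CPM in DM mice (log2 fold change 0.09, adjusted p = 0.722). *Adrm1*, a ubiquitin receptor of the cap, had 87.2, 66.1 and 71.9 CPM in WT and 62.0, 81.9 and 74.3 CPM in DM mice (-0.05, adjusted p = 0.830). Both overlapped between the groups.

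Transcription factors known to act on proteasome genes, with the enzymes that process NRF1, had 2 of 14 genes higher and 6 lower, and a median log2 fold change of -0.27. Of all genes, 19.7% were called higher and 17% lower. *Nfe2l1*, which encodes NRF1, had 88.8, 111 and 90.5 CPM in WT mice 1, 2 and 3 and 90.7, 85.3 and 93.3 CPM in DM mice 1, 2 and 3. The groups overlapped, with WT mouse 2 the highest and DM mouse 2 the lowest, and the log2 fold change was -0.11 (95% interval -0.38 to 0.17, adjusted p = 0.520, edgeR). *Nfe2l2*, for the related NRF2, had 285, 294 and 249.7 CPM in WT and 313, 278 and 232 CPM in DM mice (-0.01, adjusted p = 0.957). *Ddi2*, the protease that releases NRF1 from the endoplasmic reticulum, rose by 0.67 (adjusted p = 0.00290), and *Nfya*, a subunit of NF-Y, by 0.60 (adjusted p = 0.0126). The other NF-Y subunit genes did not pass, *Nfyb* at 0.02 (adjusted p = 0.921) and *Nfyc* at -0.27 (adjusted p = 0.0893), with every DM mouse below every WT mouse for *Nfyc*. The largest falls were those of *Bach1*, a repressor at antioxidant response elements, by 0.97, and of *Maff*, a small Maf protein, by 0.94 (adjusted p = 0.00264 and 0.00472). NRF1 is controlled largely by cleavage and breakdown of the protein, which RNA counts do not measure.

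**Figure D5:**
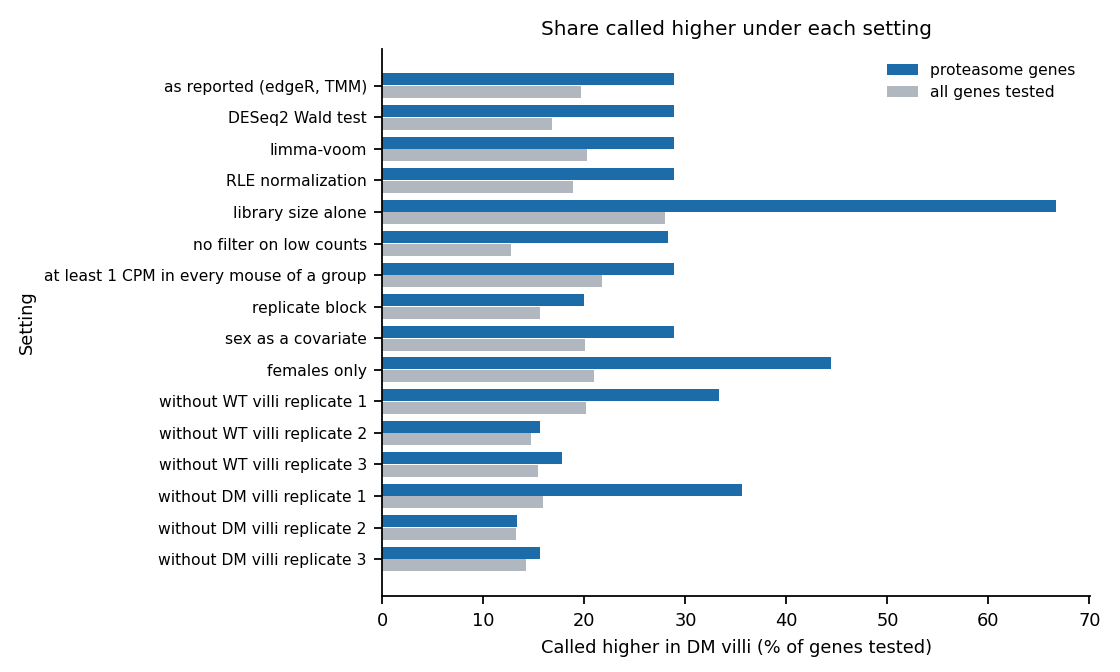
Share of proteasome genes (blue) and of all genes tested (grey) called higher in DM villi, in percent (horizontal axis, from 0), at an adjusted p under 0.05 with no fold threshold, under each setting named on the axis and with each mouse left out. The share of members is above that of all genes in each setting shown, fold thresholds not being among them, by little without DM mouse 2 (13.3% and 13.2%) and by much with library size alone (66.7% and 28%).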

How the data were processed

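Polyadenylated RNA of villus epithelium, released in EDTA (5 mM in the methods, 0.5 mM in the labels), was sequenced as 150 bp read pairs from samples with a RIN above 4. The authors used HISAT2 for alignment to mm9 and featureCounts for counting, and the values they deposited are raw counts. Features outside the annotation held 0.214% to 0.270% of these.

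Symbols, coordinates and exon lengths came from the GENCODE annotation of mm9, which held 20032 of 20073 Ensembl identifiers. Counts were tested with edgeR 4.0.16 in R 4.3.3 (filterByExpr by group, TMM, robust glmQLFit, glmQLFTest), with Benjamini-Hochberg adjustment over all 13346 genes tested. A call is an adjusted p under 0.05 in this test unless another is named. CPM values were scaled by TMM, shares and ratios of parts are of raw counts, and the ratios of pairs used counts plus 2. The tests were tried on simulated counts. The edgeR p-values set the difference between the groups against the spread between these mice, which the fit moderates across genes. The alternatives were DESeq2 1.42.0, limma-voom (limma 3.58.1), other scalings and filters, a replicate block, sex as a covariate, females alone, fold thresholds and each mouse left out.

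Members, lists and motifs were chosen with earlier results of these data known. Every mouse's value is given for the catalytic genes, for the highest and lowest log2 fold change of each class and for the untested member. From each list, the 2 called genes with the largest change in each direction are named, with *Nfe2l1*, *Nfe2l2*, *Pomp*, *Adrm1* and *Irf1* whatever their values. A further gene chosen by name in the same way, and 1 motif, are not reported here. *Psmd14*, *Psmg2*, *Psmg4*, *Nfyb*, *Nfyc*, *Cd74* and *Tap1* were added after their values were seen.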

Additional observations from a re-analysis of the deposited data

How the results depend on the processing

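The 13 higher members were the same 13 genes with DESeq2, limma-voom, RLE factors, no filter, a filter of 1 CPM and sex as a covariate, and 0 members were lower in every setting run. With library size alone, 30 members were higher and 1425 of all genes lower, the median of the members was 0.44 and *Psmb10* was at 0.52. In the females, 20 members were higher and *Psmb10* was at 0.43. At a log2 fold change of at least 1, 3 members were higher, with 1454 genes higher and 832 lower, and at 2 or more 0 members, with 406 genes higher and 302 lower. With each mouse left out, the higher members numbered 6 to 16, *Psmb10* ranged from 0.22 to 0.46 and *Psmb8* from -0.054 to 0.39. Deviations of same-numbered samples from their group means had correlations of 0.02, -0.11 and 0.01, which does not settle whether the mice were matched. The paper states that replicates were matched for age and sex across groups. With a replicate block 9 members were higher. *Psmb1*, *Psmd7*, *Psmd14* and *Psme1* were lost, at log2 fold changes of 0.48, 0.40, 0.41 and 0.40. The causes of these changes were not tested.

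Signs turned only among members that were not called. *Psme2*, at 0.00, was at -0.020 with DESeq2, -0.0021 with limma-voom, -0.024 with RLE factors, -0.0057 with the filter of 1 CPM, -0.0022 with the block, -0.016 with sex and -0.011 when summed with its pseudogene, an alternative chosen after seeing the data. Leaving out a mouse gave *Psme2* values from -0.12 to 0.15, *Psmc1* from -0.11 to 0.054, *Psma4* from -0.061 to 0.23, *Psmb5* from -0.041 to 0.40, *Psmd9* from -0.15 to 0.010, *Psmd10* from -0.014 to 0.11, *Psmd13* from -0.068 to 0.031 and *Psmg3* from -0.013 to 0.22. *Psmc1* was at 0.0019 with limma-voom, 0.0081 without a filter, 0.0031 with the block, 0.19 with library size alone and 0.10 in the females. *Psmd13* was at 0.16, *Psmd9* at 0.13 and *Psme4* at 0.069 with library size alone, and they were at 0.048 (*Psmd13*) and 0.052 (*Psmd9*) in the females. The lowest count of a tested member was 21, of *Psmg4* in WT mouse 2, and *Psmg1*, *Psmg2* and *Psmg4* had the fewest counts of the tested members. The planned values for *Psmb9* and its ratio to *Psmb6* were not run, because no row maps to the gene.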

Other observations

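Heat shock and proteotoxic stress genes, which are known to respond when the proteasome is overloaded, had 5 of 13 tested genes higher and 3 lower, with a median log2 fold change of -0.04. Of all genes, 19.7% were called higher and 17% lower. *Hsph1*, a cytosolic chaperone of the HSP110 family, rose by 1.86 (adjusted p = 0.00115, edgeR), from 10.1 ± 3.15 to 36.7 ± 8.85 CPM (SD, n = 3), and *Hsp90ab1*, the constitutive HSP90, by 1.17 (adjusted p = 0.000370). *Zfand2a*, which is induced by proteotoxic stress, fell by 0.99 (adjusted p = 0.000746), and *Syvn1*, a ubiquitin ligase of the endoplasmic reticulum, by 0.47 (adjusted p = 0.00870). The members of this list therefore went in both directions, and every DM mouse lay on one side of every WT mouse for each of these 4 genes.

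Upstream of the proteasome, the ubiquitin precursors and the activating enzymes of ubiquitin and related modifiers had 2 of 11 genes higher and 0 lower, with a median of -0.19. Of all genes, 19.7% were called higher and 17% lower. *Rps27a*, a fusion of ubiquitin with a ribosomal protein, had 32.7, 17.4 and 33.2 CPM in WT mice 1, 2 and 3 and 48.6, 101 and 121 CPM in DM mice 1, 2 and 3 (log2 fold change 1.70, adjusted p = 0.0178, edgeR). Ribosomal protein genes have many processed copies in the genome, so its counts are uncertain. *Uba2*, a subunit of the activating enzyme of SUMO, rose by 0.76 (adjusted p = 0.00203). The shuttle receptors and the p97 segregase with its cofactors, which hand substrates to the proteasome, had 1 of 16 genes higher, *Ddi2*, and 1 lower, *Nbr1*, an autophagy receptor that fell by 0.64 (adjusted p = 0.00458), with a median of -0.07.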
